A study of Mus musculus with 16 samples.

Results

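The genes for mitochondrial ribosomal proteins were followed in the heart's left ventricle and in subcutaneous white adipose tissue (scWAT) of wild-type mice and of mice labelled Adipo-HuR KO. They were taken as all gene symbols that begin with Mrpl or Mrps followed by a number, without those marked as pseudogenes, and averaging at least 1 TPM (transcript abundance per length, scaled to a fixed library total) in at least 1 tissue. Of the 33641 symbols, 83 had such a name, 5 were pseudogenes by name, and all of the remaining 78 passed the level rule and were tested in every comparison. All mice were of the C57BL/6J strain and 28 weeks old. Wild-type scWAT comprised 5 libraries (A5, A7, A8, A12, A14) and wild-type heart 4 (A5, A7, A8, A14). Mice labelled Adipo-HuR KO, in which the gene for the RNA-binding protein HuR (Elavl1) was to be deleted in adipocytes alone, gave 3 scWAT libraries (A24, A26 and A30) and 4 heart libraries (A25, A29, A30 and A31). The transgene that drives the deletion is not given in the sources used here. No mouse gave more than 1 library to a group, and 5 of the 11 mice gave both tissues.

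Mitochondria carry their own ribosome, which makes the few proteins that the mitochondrial genome still encodes, all of them subunits of the respiratory chain or of ATP synthase. Its RNAs are transcribed inside the organelle, but every one of its proteins is encoded in the nucleus, made by cytosolic ribosomes and imported. Some of these proteins descend from bacterial ribosomal proteins, and others have no bacterial counterpart and were added in the line that led to animals. Heart muscle is among the tissues richest in mitochondria, whereas white fat cells hold few. By structure, 51 members belong to the large subunit and 26 to the small subunit: Mrps18a and Mrps30 carry a small-subunit name but sit in the large subunit, and Mrps36 is a component of the 2-oxoglutarate dehydrogenase complex rather than of the ribosome core. In the classes used here, 46 members were counted as having a bacterial counterpart and 31 as having none. The paralogs Mrps18a and Mrps18b were placed among the latter and Mrps18c among the former, so the split does not strictly follow descent.

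The values are TPM as deposited, which add up to the same total in every library and keep no sequencing depth. Mitochondrially encoded transcripts took 6.14% to 14.4% of the TPM in wild-type scWAT and 10.6% to 12.3% in scWAT labelled knockout. In heart they took 51.9% to 60.6% in wild-type libraries and 43.4% to 55.7% in libraries labelled knockout, so every nuclear gene of the heart was measured in what this share left over. The summed white adipocyte markers (8 genes) stood at 49222 to 72872 TPM in scWAT, and the summed cardiomyocyte markers (9 genes) at 22488 to 33337 TPM in heart, each in its labelled tissue. In scWAT, the summed skeletal muscle markers (13 genes) ranged from 58.8 to 1141 TPM in wild-type mice, whereas A24, A26 and A30 held 5393, 406 and 10739 TPM. A26 alone held 481 TPM of B cell markers (7 genes) and 604 TPM of T cell markers (7 genes). The other scWAT libraries held 1.92 to 21 TPM of the former and 11.1 to 19.4 TPM of the latter. In heart, the summed fibroblast markers (7 genes) ranged from 203 to 319 TPM in wild-type mice, whereas A25, A29, A30 and A31 held 2184, 248, 3523 and 2937 TPM, so that A29 stood with the wild-type libraries. Macrophage markers (6 genes) were split in the same way, with 94.3 to 152 TPM in wild-type libraries, 94.7 TPM in A29 and 771 to 1023 TPM in the other libraries labelled knockout. Elavl1 did not follow the label in scWAT, with 36.2 to 42.9 TPM under the knockout label against 19.0 to 34.5 TPM in wild-type mice, so directions are given between labels. In whole tissue, fewer cells of a type and less RNA per cell cannot be told apart.

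In wild-type scWAT the members spanned a 41.2-fold range of mean TPM, from Mrpl1 at 7.19 ± 1.31 (SD, n = 5) to Mrps6 at 296 ± 80.7, with a median of 63.7. Mrps6, the mitochondrial counterpart of a bacterial small-subunit protein, and Mrps21, another one, led the order, and their means (296 and 288 ± 30.7 TPM) lay within each other's spread. Mrpl30 (209.7 ± 24.8), Mrpl33 (187 ± 34.3), Mrpl20 (178 ± 26.3) and Mrpl42 (172 ± 35.8 TPM) followed, and no neighbours among them were apart by more than their SD. The lower end was held by Mrps27 (18.8 ± 2.14), Mrpl19 (18.7 ± 4.5), Mrpl47 (15.3 ± 2.0), Mrpl57 (13.4 ± 5.26), Mrpl23 (7.58 ± 1.65) and Mrpl1 (7.19 ± 1.31 TPM). Other genes share 37.9% of the 31-base words in Mrpl19 transcripts, 25.8% of those of Mrpl47 and 18.9% of those of Mrps27, so these levels are uncertain. The 5 highest members together held 20.5% of the TPM of all 78.

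In wild-type heart the order had another head. Mrpl42, a large-subunit protein without a bacterial counterpart, stood at 318, 394, 374 and 334 TPM (mean 355 ± 35.4, n = 4). The next members, Mrpl30 at 159.7 ± 3.98 and Mrps21 at 151 ± 15.9 TPM, were below the lowest of those libraries in every wild-type heart library. The lowest members were Mrpl23 at 3.66 ± 2.46, Mrpl57 at 5.54 ± 1.16, Mrpl11 at 8.54 ± 1.3, Mrpl1 at 9.62 ± 0.79, Mrpl19 at 12 ± 1.09 and Mrps2 at 13.2 ± 2.44 TPM. The median member stood at 33.1 TPM, and the range from lowest to highest was 96.9-fold. Mrpl23 was among the lowest members but above the level rule, with means of 8.12 TPM over all scWAT libraries and 4.84 TPM over all heart libraries. The pseudogene Mrpl23-ps1, left out by the rule, was listed at 86.1 and 58.9 TPM, and the other 4 pseudogenes reached at most 1.66 TPM in any library. Of the 31-base words in Mrpl23 transcripts, 10.3% also occur in this copy, so the level of Mrpl23 is uncertain.

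**Figure D1:**
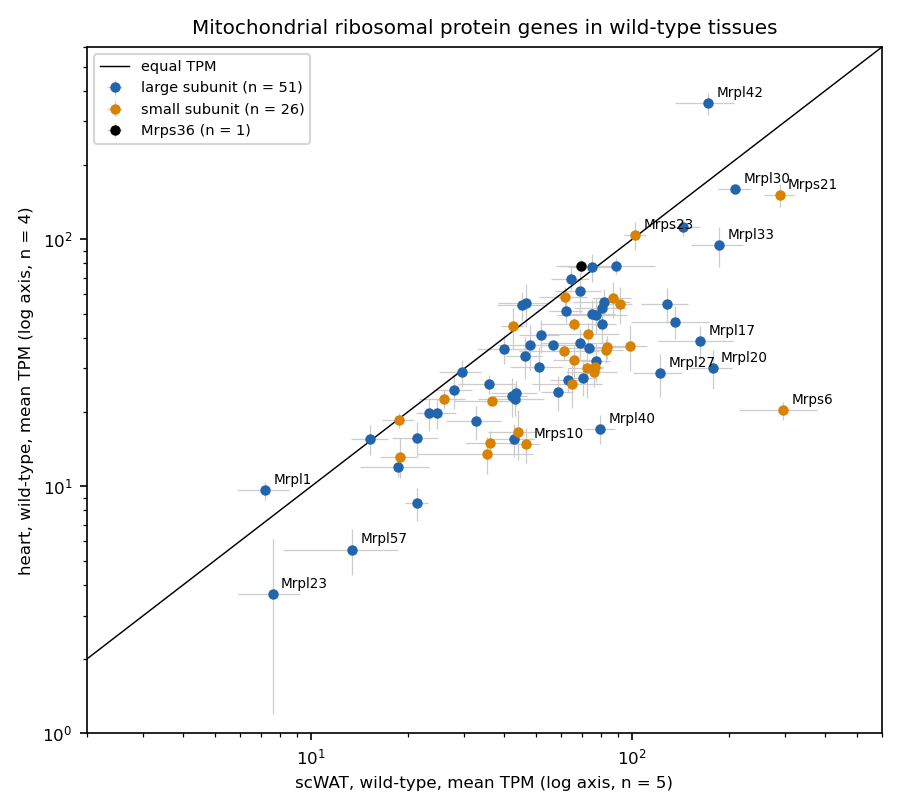
Mean TPM of each of the 78 members in wild-type scWAT (x axis, n = 5) and wild-type heart (y axis, n = 4), both on log axes, with SD as grey bars; blue points are large-subunit genes, orange points small-subunit genes. Most points lie below the line of equal TPM, Mrpl42 lies above it, and Mrps6 lies farthest below it, at 296 TPM in scWAT and 20.3 TPM in heart.

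Between the wild-type tissues, 7 members differed in the same direction whichever of 4 scalings was used. Mrpl42 and Mrpl1 (2 of 78) were higher in heart, where 8.44% of all genes were higher under all 4 scalings. Mrps6, Mrpl20, Mrpl40, Mrpl27 and Mrpl17 (5 of 78) were lower, against 34.4% of all genes. Scaling had to be examined because the median log2 difference of all 13727 tested genes, heart minus scWAT on the log2(TPM + 1) scale, was -1.22 as deposited. It was -0.46 with mitochondrially encoded genes removed and the rest rescaled, and -0.071 and -0.072 under median-of-ratios scaling and quantile normalization.

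Mrps6 had the largest difference of all members. Wild-type scWAT held 401, 349, 202, 293 and 238 TPM (mice A5, A7, A8, A12, A14). Wild-type heart held 18.3, 20.6, 22.4 and 19.9 TPM (A5, A7, A8, A14). The tissues were far apart in every mouse, with a log2 difference of -3.76 (SE 0.2, limma adjusted p = 5.1e-09), or -2.54 relative to the median of all genes. It ranged from -2.79 to -2.33 under the other 3 scalings. In the GENCODE annotation, exons of Mrps6 overlap those of Gm49711 and of Slc5a3, a myo-inositol transporter gene, both on the same strand. Of the 31-base words of Mrps6, 18.4% also occur in Gm49711, so its level is uncertain. Slc5a3 itself stood at 8.93 to 43.2 TPM in wild-type scWAT and at 0.213 to 0.597 TPM in wild-type heart, and how reads of the shared exon were assigned is not given in the sources used here.

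Mrpl42 went the other way. Its scWAT values were 206, 214, 148, 158 and 134 TPM, all below the lowest heart library at 318 TPM. The log2 difference was 1.06 (SE 0.17, limma adjusted p = 7.8e-05) and 2.28 relative to the median of all genes. Mrpl1, which forms the stalk where spent transfer RNA leaves the ribosome, was higher in heart by 0.38 (SE 0.16, limma adjusted p = 0.039) with overlapping groups, 8.74 to 10.7 against 6.21 to 9.44 TPM. With the mouse as a replicate block its difference was 0.35 (adjusted p = 0.121), whereas the other 3 scalings gave 1.34 to 1.69.

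The promoters of Mrps6 and Mrpl42 are shown as those of the members at the opposite ends of the tissue comparison. The sequences are the 250 bases before the annotated start from RefSeq (build GRCm38.p6), read 5′ to 3′ on the gene's strand, with matches to the motifs described further on in capitals; neither stretch holds one. The coordinates are those of the RefSeq table, as the files carry none.
Mrps6 (chr16:92058086-92058335, plus strand): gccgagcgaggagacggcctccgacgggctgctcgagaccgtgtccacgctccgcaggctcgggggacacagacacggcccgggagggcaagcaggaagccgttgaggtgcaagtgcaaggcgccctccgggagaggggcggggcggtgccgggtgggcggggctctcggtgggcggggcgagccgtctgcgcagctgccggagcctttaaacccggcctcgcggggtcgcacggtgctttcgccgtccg
Mrpl42 (chr10:95501950-95502199, minus strand): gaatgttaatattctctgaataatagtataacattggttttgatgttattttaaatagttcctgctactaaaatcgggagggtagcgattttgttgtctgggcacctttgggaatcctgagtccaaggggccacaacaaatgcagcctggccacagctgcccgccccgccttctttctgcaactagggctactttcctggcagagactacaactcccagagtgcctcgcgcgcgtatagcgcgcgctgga

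Among the other members lower in heart under every scaling, Mrpl20 stood at 149 to 216 TPM in wild-type scWAT and 23.3 to 34.7 TPM in wild-type heart. Its log2 difference was -2.53 (SE 0.17, limma adjusted p = 4e-08). The bacterial counterpart of Mrpl20 binds early in the assembly of the large subunit. Mrpl40, without a bacterial counterpart, differed by -2.15 (SE 0.15), Mrpl27, whose bacterial counterpart lies at the peptidyl transferase centre, by -2.06 (SE 0.18) and Mrpl17 by -2.02 (SE 0.2). Mrpl27 shares 28% of its 31-base words with Gm6304, so its level is uncertain. Mrps10 differed by -1.59 (SE 0.16) as deposited, and it was not among the 5 members lower under median-of-ratios scaling or quantile normalization. After Mrpl42 and Mrpl1, the members with the highest difference were Mrpl55 (0.25), Mrpl3 (0.23), Mrps36 (0.18) and Mrpl18 (0.11), none of which passed the test as deposited.

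Over all members, 2 were higher and 55 lower in heart as deposited, where 8.55% of all genes were higher and 77.7% lower. With mitochondrially encoded genes removed, 35 were higher (19.4% of all genes) and 14 lower (49%). Median-of-ratios scaling gave 52 higher (31.4%) and 5 lower (34.8%), and quantile normalization 52 higher (31.7%) and 5 lower (35.4%). The direction for most members was therefore set by the scaling, and 29 of the 78 members were lower as deposited and higher under median-of-ratios scaling and quantile normalization alike, as were 11.6% of all genes. The median member differed by -0.74 as deposited, 0.48 above the median of all genes (59 of 78 members above it), and lay 0.72 to 0.77 above it under the other scalings. This position depended on how low values were handled. With no filter on them the median member lay at -0.32 relative to all genes (25 of 78 above). With a pseudocount of 5 it lay at 0.14 (48 of 78).

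By subunit and as deposited, large-subunit members had a median difference of -0.58 (2 higher and 34 lower of 51). Small-subunit members had one of -0.96 (0 higher and 21 lower of 26). The median of all genes was -1.22, with 8.55% higher and 77.7% lower. The summed TPM of the large subunit divided by that of the small subunit was 1.61 to 1.80 in wild-type scWAT and 2.24 to 2.36 in wild-type heart, without overlap and whatever the library total. With Mrps6 left out of the sums the ratio was 1.91 to 2.1 in wild-type scWAT and 2.29 to 2.41 in wild-type heart, still without overlap. With Mrps6 and Mrpl42 both left out it was 1.81 to 2.0 and 1.95 to 2.02, which overlap. These 2 members were picked from the opposite ends of the same tissue comparison, so leaving them out had to narrow the gap. A difference between the subunits was not tested. Within the classes, also as deposited, small-subunit members with a bacterial counterpart had the lowest median (-1.10, 15 of 16 lower). Large-subunit members with one had a median of -0.55 (19 of 30 lower, 1 higher), those without one -0.74 (15 of 21 lower, 1 higher), and small-subunit members without one -0.71 (6 of 10 lower).

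Among other genes of the pathway, the 23 genes for mitochondrial aminoacyl-tRNA synthesis had a median difference of -0.49 (1 higher, 14 lower), and 25 assembly factors -0.75 (1 higher, 18 lower). The counts given for these lists are as deposited, where 8.55% of all genes were higher and 77.7% lower. Of 13 translation factors, 3 were higher (Lrpprc by 1.25, Taco1 by 0.90 and Gfm1, a translocation factor, by 0.74) and 5 lower, with a median of -0.067. Nuclear subunits of complex I, the first enzyme of the respiratory chain, had a median of 0.38, or 1.6 above the median of all genes, with 21 higher and 4 lower of 36. The 13 mitochondrially encoded mRNAs, the templates of this ribosome, were all higher, with a median of 2.69. Cytosolic ribosomal proteins were all lower as deposited, by a median of -1.82 (45 large-subunit genes) and -1.76 (32 small-subunit genes), and lay 0.60 and 0.54 below the median of all genes. The nuclear complex I subunits summed to 3.41 to 3.64 TPM per TPM of the members in wild-type heart and to 1.45 to 1.81 in wild-type scWAT. Mitochondrially encoded mRNA amounted to 137 to 209 TPM per TPM of the members in wild-type heart and 9.11 to 29.7 in wild-type scWAT, and neither ratio depends on how the library total is set.

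In scWAT, no member differed between libraries labelled knockout and wild-type libraries at an adjusted p under 0.05 (limma, 0 of 78; 0.0219% of all genes passed). At an unadjusted p under 0.05, 1 member was higher (8.11% of all genes) and 3 were lower (7.52%). The median log2 fold change of the members was -0.023, that of all genes 0.034. Groups did not overlap for 1 higher member (5.23% of all genes) and 5 lower ones (5.06%): Mrpl47 was higher, and Mrps6, Mrpl20, Mrpl27, Mrps34 and Mrpl11 were lower. Mrps34 and Mrpl11 are named here after their values were seen, and Mrps34 shares 73.8% of its 31-base words with other genes (56.8% with Mapk8ip3), so its level is uncertain.

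For Mrps6, the highest member of wild-type scWAT, the libraries labelled knockout held 112 (A24), 75.3 (A26) and 157 TPM (A30), against 202 to 401 TPM across wild-type mice. The lowest wild-type library was above the highest library labelled knockout. The log2 fold change was -1.38 (SE 0.28, unadjusted p = 0.00087), and it did not pass the adjustment over all genes (limma adjusted p = 0.216). It was -1.11 without A26, -1.40 without A24 and -1.63 without A30. A fit over all 16 libraries with shared spread gave the same -1.38 with a limma adjusted p of 0.0137; that fit called Mrps6 and Mrpl47, where 1.31% of all genes passed. Slc5a3, which overlaps Mrps6, held 6.91, 5.59 and 17.6 TPM in the same 3 libraries.

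Mrpl47, the counterpart of a bacterial protein at the exit of the nascent peptide tunnel, differed in the other direction. Wild-type scWAT held 13.5, 16.4, 18, 13.3 and 15.3 TPM (A5, A7, A8, A12, A14), and A24, A26 and A30 held 21.6, 32.1 and 29.5 TPM. All 3 libraries labelled knockout were above every wild-type library, and Mrpl47 differed by 0.81 on the log2 scale (SE 0.17; limma adjusted p = 0.216, or 0.0366 in the fit over all 16 libraries). With mean skeletal muscle and B cell marker levels as covariates, Mrpl47 was at 0.26 (SE 0.47) and Mrps6 at -1.54 (SE 0.71). The limma adjusted p was 0.988 for each. Over all genes that fit gave log2 fold changes from -12.04 to 18.34 and 0 passed, so it cannot separate the label from these markers. The exons of Mrpl47 overlap those of Ndufb5 and Actl6a on the opposite strand, and whether the counting used strand is not given in the sources used here. Of the 31-base words of Mrpl47, 25.8% also occur in other genes on either strand (13.4% in Ndufb5), so its level is uncertain. Ndufb5 ranged from 189.6 to 225 TPM among wild-type libraries, and A24, A26 and A30 held 245, 257 and 257 TPM of it.

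Among the other members of scWAT, Mrpl20 ranged from 149 to 216 TPM in wild-type mice, and A24, A26 and A30 held 125, 139 and 123 TPM. The log2 fold change of Mrpl20 was -0.45 (SE 0.15), with a limma adjusted p of 0.239. Mrpl27 was at 98.4 to 152 and 86.4 to 94.2 TPM (-0.43, SE 0.16, limma adjusted p = 0.261). Mrpl54 had a fold change of -0.47 and Mrps28 one of -0.40, and on the higher side Mrpl52 (0.32), Mrpl23 and Mrpl38 (0.24 each) and Mrps16 (0.23) followed Mrpl47, all with overlapping groups. The summed TPM of all members was 4836 to 6745 in wild-type libraries and 5080.1 to 5369.7 in those labelled knockout, so the latter lay inside the wild-type range. The large over small subunit ratio was 1.61 to 1.80 against 1.95, 1.90 and 1.78, and without Mrps6 it was 1.91 to 2.1 against 2.08, 1.98 and 1.95, all inside the wild-type range.

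**Figure D2:**
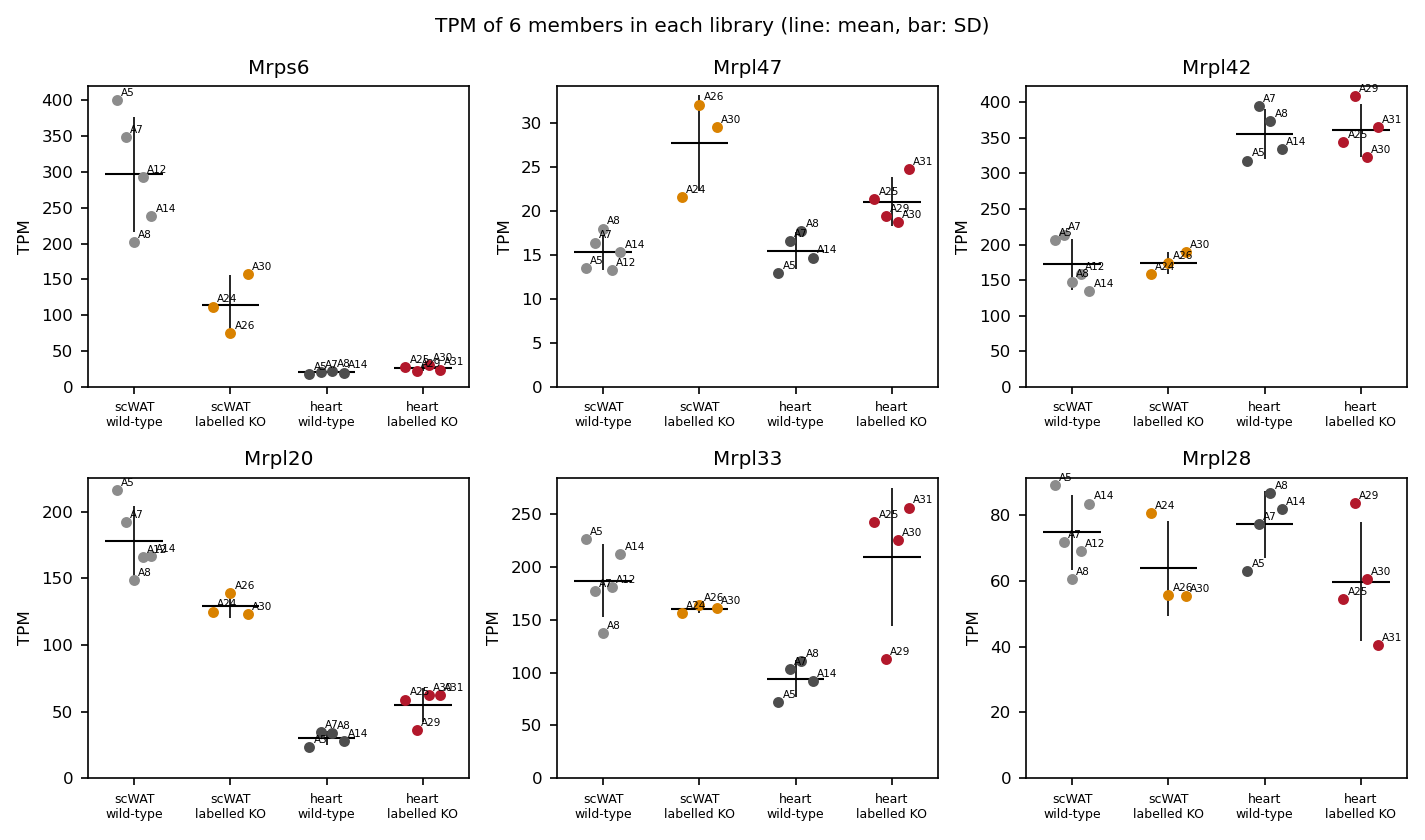
TPM (y axis, starting at 0) of Mrps6, Mrpl47, Mrpl42, Mrpl20, Mrpl33 and Mrpl28 in each of the 16 libraries, by tissue and label, with the mean as a line, the SD as a bar and the mouse beside each point. In scWAT the groups do not overlap for Mrps6, Mrpl47 and Mrpl20, and in heart they do not overlap for Mrpl47, Mrpl20 and Mrpl33.

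No gene of the surrounding pathway passed the adjusted threshold in scWAT either. The 2 with the smallest p were, among translation factors, the release factor Mtrf1l (0.74, SE 0.16) and Gfm1 (-0.32), and among assembly factors Mpv17l2 (-0.70, SE 0.19) and Ngrn (0.53, SE 0.16). Among transcription genes of the organelle Tfam stood at 0.45 (SE 0.17), and among regulators of mitochondrial biogenesis Nrf1 stood at 0.77 (SE 0.20) and Gabpb1 at 0.50 (SE 0.18), with limma adjusted p from 0.216 to 0.426 for all of these. All 11 tested transcription genes lay above the median of all genes, with a median of 0.30. mt-Nd3, a mitochondrially encoded complex I mRNA, ranged from 114 to 1237 TPM in wild-type scWAT and from 2083 to 3691 TPM in scWAT labelled knockout (3.09, SE 0.67, limma adjusted p = 0.216). The skeletal muscle markers given above were higher in A24 and A30 than in every wild-type library. The summed brown adipocyte markers (8 genes), of a cell type rich in mitochondria, ranged from 138 to 575 TPM in wild-type mice, and A24, A26 and A30 held 454, 949 and 733 TPM. Of the 7 markers tested in scWAT, 5 had a higher mean under the knockout label and 0 passed the adjusted threshold. The same sum was 1000.3 to 1493 TPM in wild-type heart, so it does not mark brown adipocytes alone. The part of either marker list in these values was not tested.

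In heart, Mrpl33 and Mrpl20 stood highest in libraries labelled knockout relative to wild-type ones, and Mrpl28 lowest. No member passed an adjusted p under 0.05 in that tissue either (limma, 0 of 78, lowest adjusted p 0.142; 0.0501% of all genes passed). At an unadjusted p under 0.05, 19 members were higher in the libraries labelled knockout (20.9% of all genes) and 0 were lower (3.66%). The median log2 fold change of the members was 0.25, and that of all 11981 tested genes was 0.26 (37 of 78 members above it). With no filter on low values the median member lay 0.21 above all genes (66 of 78 above), and with a pseudocount of 5 it lay 0.076 above (52 of 78). Groups did not overlap for 26 higher members (3.71% of all genes) and for 0 lower ones (0.634%). That count followed the scaling: it was 14 with mitochondrially encoded genes removed (5.21%), 5 under quantile normalization (6.08%) and 2 under median-of-ratios scaling (5.07%). Those 2, Mrpl33 and Mrpl20, were also the members without overlap in all 4 scalings.

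**Figure D3:**
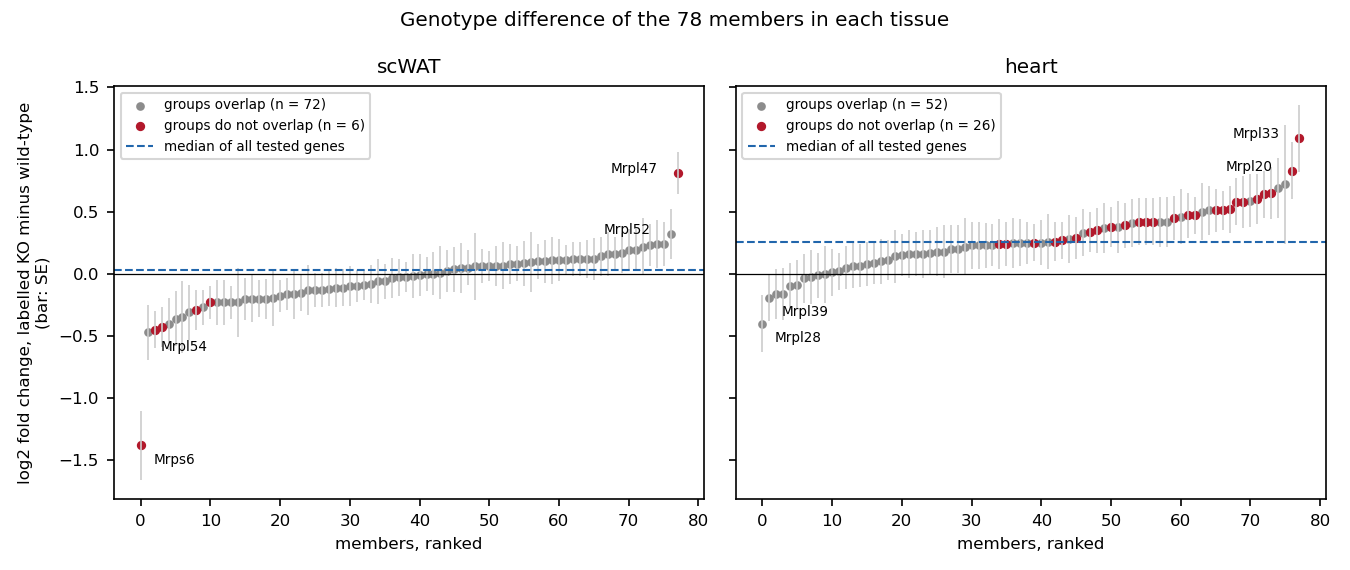
Log2 fold change of each of the 78 members, libraries labelled knockout minus wild-type (y axis, bar SE), ranked from lowest to highest (x axis) in scWAT and heart; red points are members whose groups do not overlap, 6 in scWAT and 26 in heart, and the dashed line is the median of all tested genes. In heart the members scatter around the dashed line at 0.26, and Mrpl33 (1.09) and Mrpl20 (0.83) have the highest values; in scWAT Mrps6 (-1.38) and Mrpl47 (0.81) lie apart from the rest.

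For Mrpl33, a short protein of the large subunit with a bacterial counterpart, wild-type heart held 71.7, 103, 111 and 91.7 TPM (A5, A7, A8, A14). The libraries labelled knockout held 242 (A25), 113 (A29), 225 (A30) and 256 TPM (A31). The exons of Mrpl33 overlap the transcript Gm43809 on the same strand. A29 was just above the highest wild-type library, and the other 3 were far above it. On the log2 scale the difference was 1.09 (SE 0.27, limma adjusted p = 0.142), or 0.83 relative to the median of all genes, and 0.74 to 0.91 under the other scalings. Without A29 it was 1.36 (SE 0.16, limma adjusted p = 0.00023).

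Mrpl20 had the same split among the libraries. Wild-type heart held 23.3, 34.7, 34.2 and 28.0 TPM, and A25, A29, A30 and A31 held 59.0, 35.9, 62.7 and 62.5 TPM, again with A29 next to the wild-type libraries. The log2 fold change was 0.83 (SE 0.23, limma adjusted p = 0.142), 0.52 to 0.67 under the other scalings, and 1.02 (SE 0.17, adjusted p = 0.0014) without A29. Even the higher heart values remained below the scWAT values of 123 to 216 TPM given above. Next by p were Mrpl53 (0.64, SE 0.19), Mrps23 (0.51, SE 0.16) and Mrps18c (0.65, SE 0.21). Mrpl53 ranged from 38.4 to 58.2 TPM in wild-type heart and from 62.4 (A29) to 86.4 TPM (A25) under the knockout label, but 84.4% of its 31-base words also occur in the overlapping gene Gm42688, so its level is uncertain. Mrps23 ranged from 93.1 to 123 TPM in wild-type heart and from 142 to 160.4 TPM under the knockout label.

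The stretches before the start of Mrpl33, Mrpl20 and Mrpl53 are shown as those of the 3 members with the smallest p in heart (RefSeq, GRCm38.p6, 250 bases before the start, 5′ to 3′ on the gene's strand, capitals marking CCGGAAG or its reverse complement).
Mrpl33 (chr5:31613701-31613950, plus strand): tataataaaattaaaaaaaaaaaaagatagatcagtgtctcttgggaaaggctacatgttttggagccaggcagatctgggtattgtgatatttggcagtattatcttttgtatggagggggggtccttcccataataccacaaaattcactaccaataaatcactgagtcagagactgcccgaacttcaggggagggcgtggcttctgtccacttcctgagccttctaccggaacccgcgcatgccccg
Mrpl20 (chr4:155802628-155802877, plus strand): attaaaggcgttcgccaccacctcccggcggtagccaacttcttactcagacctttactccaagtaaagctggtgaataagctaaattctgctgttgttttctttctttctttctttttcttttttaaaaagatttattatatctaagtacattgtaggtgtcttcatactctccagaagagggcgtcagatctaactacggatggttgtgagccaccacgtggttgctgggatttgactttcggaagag
Mrpl53 (chr6:83108858-83109107, plus strand): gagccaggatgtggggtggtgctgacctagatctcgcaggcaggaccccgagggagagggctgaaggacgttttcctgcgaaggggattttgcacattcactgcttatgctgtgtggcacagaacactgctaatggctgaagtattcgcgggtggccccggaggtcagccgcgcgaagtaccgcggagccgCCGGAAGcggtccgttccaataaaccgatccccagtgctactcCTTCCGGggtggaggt

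At the low end in heart, Mrpl28, a large-subunit protein with a bacterial counterpart, was at 62.9, 77.3, 86.5 and 81.7 TPM in the wild-type mice. Under the knockout label it was at 54.5 (A25), 83.5 (A29), 60.6 (A30) and 40.4 TPM (A31), so that A29 lay inside the wild-type range and the other 3 lay below it. The log2 fold change was -0.40 (SE 0.23, limma adjusted p = 0.289), and -0.57 (adjusted p = 0.0298) without A29. Mrpl39 (-0.19), Mrps35 and Mrps9 (-0.16 each) and Mrpl4 (-0.10) followed, none past the threshold with all libraries or without A29 as deposited. A25, A30 and A31 held 36.8, 35.5 and 35.7 TPM of Mrps9 and A29 held 49.9 TPM, against 32.1 to 50.6 TPM across wild-type mice.

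Leaving out A29 changed the picture for the members as for all genes. Without it, 21 members were higher and 1 lower at an adjusted p under 0.05, where 34.8% of all genes were higher and 4.16% lower. Their median was then 0.27, which is 0.12 below that of all genes (0.39). The split depended on the scaling: with mitochondrially encoded genes removed as well, 15 were higher (29.3% of all genes) and 7 lower (9.32%), and under median-of-ratios scaling 2 were higher (19.9%) and 13 lower (20.6%). Mrpl33 and Mrpl20 were the 2 higher ones in the last of these, and Mrpl28 had the lowest fold change among the 13. The mitochondrially encoded share of TPM and the fibroblast and macrophage markers move with these values, and their part was not tested.

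The summed TPM of the 78 members was 2904, 3572, 3789.9 and 3388 in the wild-type heart libraries and 4410.1, 3966, 4158 and 4158 in A25, A29, A30 and A31. The groups did not overlap on this scale. After removal of the mitochondrially encoded genes the sums were 7240.2 to 7879 in wild-type libraries and 8198, 8942, 7349 and 8141 in A25, A29, A30 and A31, so that A30 fell inside the wild-type range and A29 was highest. On the same scale the members took 5466 to 7186 TPM in wild-type scWAT, so heart was below scWAT as deposited and above it without the mitochondrially encoded genes. The large over small subunit ratio in heart was 2.24 to 2.36 in wild-type libraries and 2.30 to 2.38 in those labelled knockout.

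**Figure D4:**
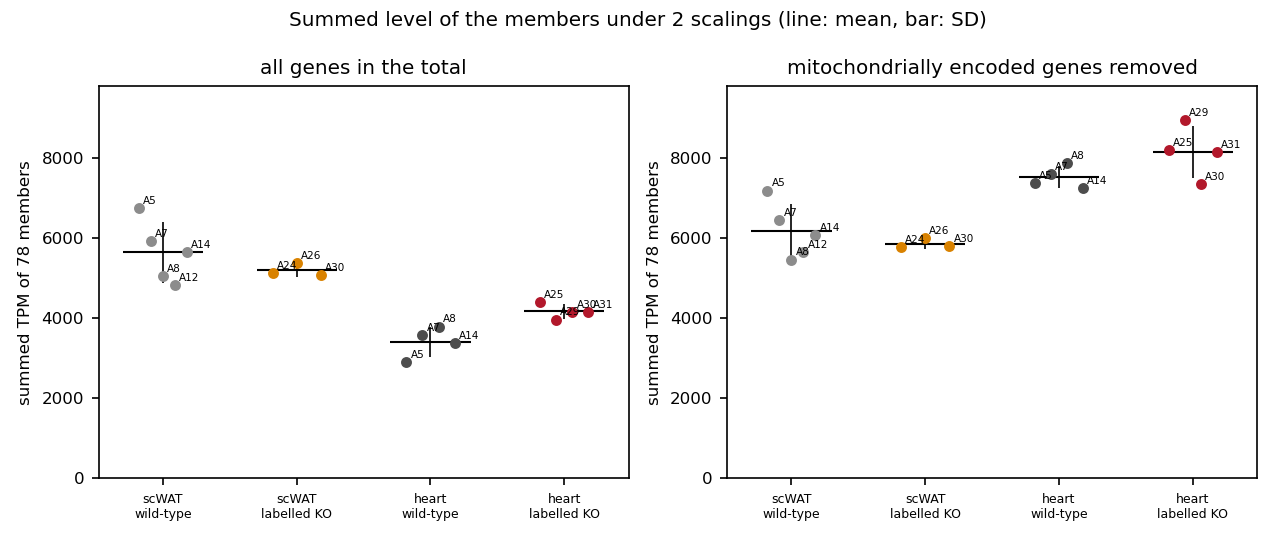
Summed TPM of the 78 members (y axis, starting at 0) in each library, by tissue and label, with all genes in the total (left) and with mitochondrially encoded genes removed and the rest rescaled (right); lines are means and bars SD. Heart lies below scWAT on the left (2904 to 4410.1 against 4836 to 6745) and above it on the right (7240.2 to 8942 against 5466 to 7186).

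The members were also set against other parts of the machinery in the same libraries. Cytosolic ribosomal proteins summed to 4.93, 4.75, 4.86 and 4.57 TPM per TPM of the members in wild-type heart, and to 8.74, 4.38, 8.05 and 9.44 in A25, A29, A30 and A31. Their own median log2 fold changes were 0.92 (large subunit, 44 of 45 higher at an unadjusted p under 0.05) and 0.94 (small subunit, 32 of 32). Of all genes, 20.9% were higher at that p, and 0 of these ribosomal genes passed the adjusted threshold. Complex I subunits summed to 3.41 to 3.64 TPM per TPM of the members in wild-type heart and to 2.62, 3.43, 2.63 and 2.59 in A25, A29, A30 and A31. For both ratios, A29 was beside the wild-type libraries and the other 3 were apart from them. Mitochondrially encoded mRNA per TPM of the members was 209, 148, 137 and 157 in wild-type heart and 105, 140.3, 104 and 118 in the libraries labelled knockout.

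**Figure D5:**
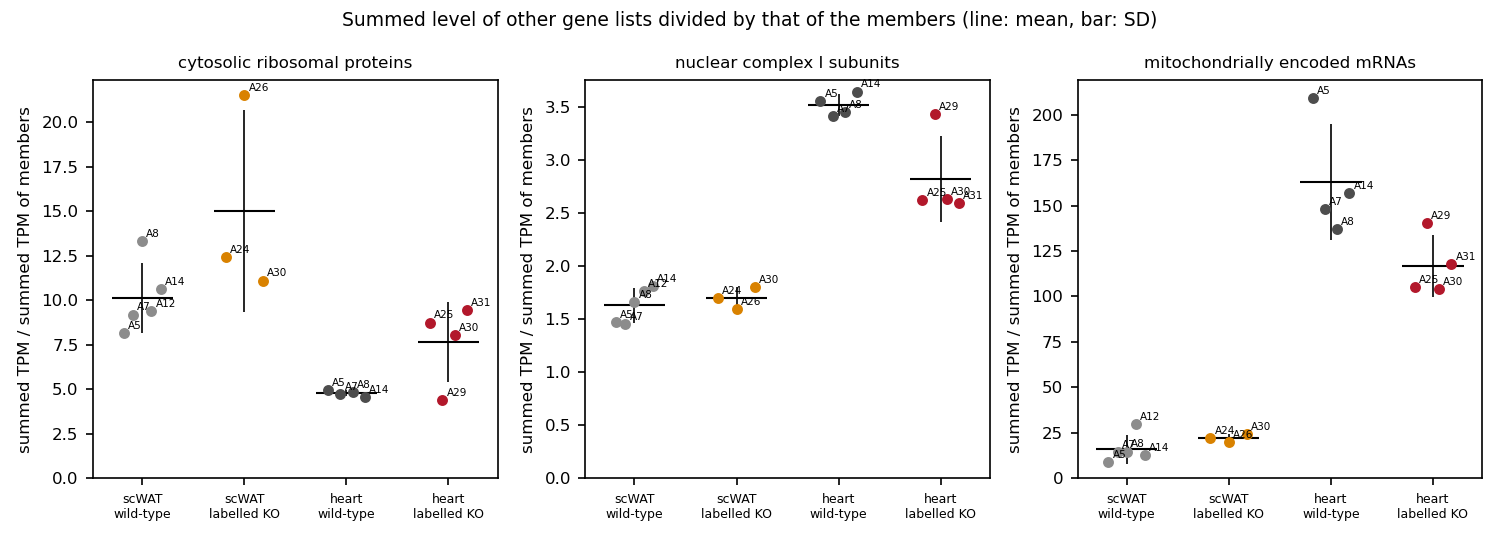
Summed TPM of cytosolic ribosomal protein genes, nuclear complex I subunit genes and mitochondrially encoded mRNAs, each divided by the summed TPM of the 78 members (y axes, starting at 0), in each library; lines are means and bars SD. In heart, A29 stands with the wild-type libraries at 4.38 for cytosolic ribosomal proteins and 3.43 for complex I, and A25, A30 and A31 stand apart at 8.05 to 9.44 and 2.59 to 2.63.

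Among the lists around the mitochondrial ribosome in heart, 1 gene passed the adjusted threshold. mt-Nd3 rose from 1937 to 2619 TPM across wild-type mice to 12775 to 15953 TPM under the knockout label, A29 included (2.61 on the log2 scale, SE 0.15, limma adjusted p = 2.5e-05). The median of all 13 mitochondrially encoded mRNAs was -0.32, with mt-Nd5 at -0.51 (SE 0.17). Mitochondrial tRNA synthetases had a median of -0.052, and Lars2, the leucyl enzyme, ranged from 184 to 394 TPM in wild-type mice and from 126 to 169.5 TPM under the knockout label (-0.72, SE 0.23, limma adjusted p = 0.142). Translation factors had a median of 0.0095 (Guf1 and Slirp 0.63 each) and assembly factors one of 0.14 (Ngrn 0.43, Malsu1 0.40). The median of all tested genes was 0.26, and 4 of 23 tRNA synthetases, 2 of 13 translation factors and 7 of 25 assembly factors lay above it. Of 6 further ribosomal subunits that carry other names, with a median of 0.16, Chchd1 stood at 0.62 (SE 0.19) and Gadd45gip1 at 0.50 (SE 0.22). The regulators Ppargc1a, a coactivator that drives mitochondrial biogenesis, and Esrrg, a nuclear receptor it works with, stood at -0.99 (SE 0.33) and -0.83 (SE 0.29), neither past the adjusted threshold (0.142 and 0.149).

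An interaction term over all 16 libraries asked whether a member's difference between labels was unequal in scWAT and heart. Of the 78 members, 0 passed the adjusted threshold (limma; 0.0607% of all genes passed), while 22 had a positive term at an unadjusted p under 0.05 (17% of all genes) and 0 a negative one (3.42%). Mrps6 had the smallest p, with a difference of 1.71 (heart minus scWAT, SE 0.33, limma adjusted p = 0.0863), made up of -1.38 in scWAT and 0.33 in heart. Mrpl20 (1.28, SE 0.28) and Mrpl33 (1.28, SE 0.34) each had an adjusted p of 0.0898. Mrpl20 was lower in every scWAT library labelled knockout than in every wild-type one, and higher in every such heart library. These 3 passed under median-of-ratios scaling, with 1.43, 1.01 and 1.00 for Mrps6, Mrpl20 and Mrpl33 (2.73% of all genes passed), and without A29, with 1.79, 1.47 and 1.55 (24.6%). The other scalings did not give all 3. With mitochondrially encoded genes removed 0 members passed (lowest limma adjusted p 0.0648, 0.104% of all genes passed), and under quantile normalization 2 members passed (1.91%).

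The proximal promoters of the members were searched for 4 short motifs. RefSeq windows of 250 bases before to 50 after the start (GRCm38.p6) were matched by symbol for 69 of 78 members, giving 75 windows; Mrpl4, Mrpl13, Mrpl15, Mrpl19, Mrpl38, Mrpl54, Mrps28, Mrps34 and Mrps35 had no entry. Both strands were searched for exact letters. CCGGAAG, the core bound by the ETS factor GABPA, was in 26 windows (34.7%), against 8.86% of all windows and 16.6% of those of genes averaging 1 TPM or more. AAGATGGC, the motif of YY1, was in 12 windows (16%), against 2.75% of all windows and 4.23% of those of expressed genes. The 10-base palindrome of NRF1 was in 3 windows (4%, against 0.971% of all windows and 1.96% of those of expressed genes). AAGGTCA, the half-site of oestrogen-related receptors, was in 4 (5.33%, against 4.72% and 3.3%). None of the 4 motifs was in 36 of the 75 windows. CCGGAAG can share its last letters AAG with the start of AAGATGGC or AAGGTCA. GABPA matches lay before the start in 18 of 26 windows, those of Mrpl53 among them, and those of Mrpl33 and the YY1 match of Mrpl42 lay after it. Cytosolic ribosomal protein windows held CCGGAAG as often (35.8%), and those of complex I subunits held it in 11.8% and AAGATGGC in 20.6%. A match is a description of letters and not a bound site.

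The 3 Mrps18 genes are paralogs whose proteins occupy different places, Mrps18a in the large subunit and Mrps18b and Mrps18c in the small one. In wild-type scWAT they stood at 75.2 ± 12.9, 64.7 ± 16.1 and 76.5 ± 4.55 TPM (n = 5), with overlapping ranges. In wild-type heart Mrps18a was highest, at 49.6 ± 7.23 TPM (39.7 to 56.9), above every value of Mrps18b (25.9 ± 5.15) and Mrps18c (30.5 ± 3.0, n = 4). For Mrps18c, wild-type heart held 26.7, 33.6, 31.9 and 29.7 TPM, and A25, A29, A30 and A31 held 50.9, 34.8, 48.9 and 62.1 TPM. Mrps18a and Mrps18b had log2 fold changes of 0.23 and 0.26, at the median of all genes, against 0.65 for Mrps18c. A difference between the paralogs in their response was not tested, and 31.6% of the 31-base words of Mrps18b and 34.5% of those of Mrps18c occur in other genes. Mrps36, outside the ribosome core, was 72.0 to 82.0 TPM in wild-type heart and 89.6 to 97.0 TPM in heart labelled knockout, a log2 fold change of 0.25 that equals the median of the members.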

How the data were processed

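RNA from scWAT and left ventricle was extracted with Trizol and made into libraries with a TruSeq kit, per the labels' protocols. Per the file headers, each deposited file lists gene symbols with their TPM; aligner, quantifier, annotation and build are not given in the sources read here. TPM keeps no depth, so the depth of each of the 16 libraries is unknown and no counting interval is given. Groups and mouse numbers came from the sample labels.

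Genes whose mean reached 1 TPM were tested on log2(TPM + 1), with a pseudocount of 1, in limma 3.58.1 (R 4.3.3; lmFit, eBayes with a trend), 2-sided, with Benjamini-Hochberg adjustment over all genes tested and a threshold of 0.05. The pseudocount understates the change of low genes. Each tissue was fitted alone for the genotype; wild-type libraries alone gave the tissue difference. Values called relative have the median of all tested genes subtracted. The fits were tested on simulated data. Members, lists, markers and the naming rule were chosen with earlier results of these data known. Named were members past the threshold (up to 8 per direction by p), the 5 with the smallest p per direction and genotype comparison, the highest and lowest 5 per tissue, the 6 largest tissue differences per direction, the Mrps18 paralogs, and from each pathway list genes past the threshold or else the 2 with the smallest p; after their values were seen, Mrps34, Mrpl11, Slc5a3 and, for the tissue difference, translation factors.

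Sample titles give the same mouse for both tissues in A5, A7, A8 and A14, so by title the mouse pairs those libraries. Deviations from the group means correlated within a mouse at 0.0119, 0.0514, 0.141 and 0.0707 over 13727 genes. Between unlike mice they correlated at -0.109 to 0.0757, so these values do not by themselves show the pairing. Shared sequence was counted as 31-base words of GENCODE transcripts, and promoters came from RefSeq (GRCm38.p6). Alternatives were other pseudocounts (0.25 and 5), filters (none and 5 TPM), scalings, robust eBayes, array weights, covariates, a fit over all 16 libraries, each library left out and the mouse block; those that combine a scaling with leaving out A29, the 5 scWAT libraries of the plain file name style alone, the counts without overlap under other scalings and the subunit ratio without Mrps6 and Mrpl42 were chosen after seeing the data.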

Additional observations from a re-analysis of the deposited data

Results flagged for a closer look

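Of 117 groups of 4 or 5 libraries examined, 7 held a library far from the others by Dixon's criterion, and chance marks about 1 in 20 groups. The wild-type heart library A5 was low for 3 members: Mrpl3 at 39.1 TPM, against 59.1 to 62.4 in the other libraries of its group, Mrps2 at 9.6 TPM (14.2 to 14.8) and Mrps28 at 31.6 TPM (36.3 to 36.6). That library had the highest mitochondrially encoded share of TPM of its group, 60.6%. The heart library A29, labelled knockout, was apart from its group for Mrpl20, at 35.9 TPM (59 to 62.7 in the others), and for Mrps9, at 49.9 TPM (35.5 to 36.8), in opposite directions. Its fibroblast and macrophage markers were at wild-type levels, and their part in these values was not tested. Heart library A31 was low for Mrps27 at 17.6 TPM (21.9 to 22), and the wild-type scWAT library A5 was high for Mrpl1 at 9.44 TPM (6.21 to 7.05).

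For Mrpl20 and Mrpl11 every library labelled knockout was lower than every wild-type library in scWAT and higher in heart as deposited. For Mrpl11 the heart groups overlapped under the other 3 scalings, and its heart fold change was -0.011 relative to the median of all genes. The difference between the tissues was 1.28 for Mrpl20 and 0.48 for Mrpl11 on the log2 scale, and neither passed the interaction test (limma adjusted p = 0.0898 and 0.214).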

How the results depend on the processing

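In scWAT, 0 members were called under every alternative except the fit over all 16 libraries, which called 2 (Mrpl47 and Mrps6; 1.31% of all genes). In heart, array weights called 49 (43 higher, 6 lower, where 43.1% and 22.7% of all genes were called), the fit over all 16 libraries 5 (7.06% of all genes), median-of-ratios scaling without A29 15 (40.6%), and removal of mitochondrially encoded genes without A29 22 (38.7%); leaving out 1 library gave 0 to 22, the 22 without A29 (38.9%). For the interaction, array weights called 36 (45.6% of all genes), quantile normalization 2 (1.91%), median-of-ratios scaling 3 (2.73%), and mitochondrially encoded genes left out together with A29 11 (21%), and leaving out 1 library 0 to 16, the 16 without A29 (24.6%) and 1 each without scWAT A26, A30 or A8. Members higher without overlap in heart numbered 14, 2 and 5 under the 3 other scalings. With 1 library left out this count cannot fall below the 26 of all libraries. It reached 40 without A29, where 45.3% of all genes were higher without overlap. Without mitochondrially encoded genes the members' share of TPM was 0.586% in scWAT labelled knockout (0.519% as deposited), 0.752% in wild-type heart (0.341%) and 0.816% in heart labelled knockout (0.417%). Mrps28 in scWAT turned to 0.059 with muscle and B cell covariates; Mrpl48 and Mrps18c in the tissue comparison turned to 0.094 and 0.130 under median-of-ratios scaling and to 0.029 and 0.070 under quantile normalization. The cause was not tested. With the mouse as a replicate block, 54 members differed between tissues (1 higher, 53 lower) in place of 57, Mrpl1 being lost, and 0 had an interaction; the block changed no other named call. Depth is unknown, so no limit by depth can be given.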

Other observations

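Transcript length was set beside the heart genotype difference. Spearman's rho between the longest coding transcript and the log2 fold change was -0.118 across the 78 members, -0.284 across 11459 tested genes with a length and -0.519 across 36 complex I subunits; these are correlations across genes, which are not independent replicates. The 15 members with transcripts of up to 800 bases had a median of 0.09 relative to all genes, the 31 members up to 1500 bases one of 0.00 and the 32 longer members one of -0.01. Over all genes the same bins gave 0.24, 0.17 and -0.03.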
